A study of Mus musculus with 8 samples.

Results

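Interferon-stimulated genes were followed in mouse CD11c positive bone marrow cells that had or had not been loaded with acetylated low density lipoprotein. The set was a list of 58 gene symbols, and its members were the rows of the expression table whose symbol equalled one of them. Of the 58, 50 were in the table, out of 11756 genes in all, and 47 passed the filter on low values and were tested. The 8 symbols with no row (Isg15, Ifit2, Oasl1, Cmpk2, Isg20, Bst2, Irgm1 and Ddx58) were not analysed here. Marrow came from femurs and tibias of C57BL/6 mice, with no other genotype named, and the cells were sorted by flow cytometry for CD11c, an integrin of dendritic cells and some macrophages. In the first group of 4 libraries the cells received acLDL, a modified lipoprotein taken up by scavenger receptors, on culture day 6 for 24 h. The second group of 4 libraries were the untreated controls of the same culture scheme. The series' design text presents acLDL as a stand-in for the surroundings in an atherosclerotic vessel. The sources used here state neither the age and number of the mice nor whether animals were pooled. P-values therefore cover the spread among libraries only, and that spread may be technical.

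Interferons are secreted proteins that bind receptors on the cell surface, and the receptors signal through Janus kinases to STAT transcription factors. Type I interferons activate ISGF3, a complex that includes STAT2 and IRF9 and binds interferon-stimulated response elements (ISRE), while interferon gamma acts through gamma-activated sites (GAS). The genes switched on encode sensors of foreign nucleic acid, proteins that block viral entry, translation or replication, and GTPases that attack the vacuoles of intracellular microbes. Dendritic cells and macrophages express many of them at a basal level, and several members also serve the pathway itself, as its transcription factors or its brakes.

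The expression values were normalized by the authors, with library totals from 3917426 to 4385051, and 662 to 2574 of the 11756 genes per library were listed at 0. Libraries of the acLDL group differed among themselves along transcript length. An index of short transcripts, the mean log2 deviation from each gene's own mean over 489 tested genes with a longest coding transcript below 1000 nt, stood at 1.11, -1.36, -2.25 and -0.30 in acLDL libraries 1 to 4, and at 0.058, 0.94, 1.08 and 0.72 in control libraries 1 to 4. Thus acLDL libraries 2 and 3 stood far below the rest, and acLDL library 1 stood at the level of the highest controls. Of all libraries, acLDL library 1 was closest to control library 3 in Spearman correlation over genes (0.95). Itgax, which encodes the CD11c used for sorting, was low in the libraries where the index was low, with 189, 10.004, 0 and 42.7 in acLDL libraries 1 to 4, against 81.5, 182, 195 and 172 in control libraries 1 to 4. The summed level of 9 detected granulocyte markers, out of 10 listed, lay between 479 and 11354 with acLDL, against 5413 to 13223 in controls, and 8 of the 9 had a lower mean log2 value with acLDL. Markers of the sorted cells themselves mostly had lower means with acLDL. Of 10 dendritic cell markers, all in the table, 9 were tested and 7 of these were lower (median log2 fold change -1.86, as acLDL minus control), among them H2-Aa at -3.45, H2-Ab1 at -2.44 and Itgax at -2.42. Their sum of 35348 to 45369 with acLDL, against 31796 to 35578 in controls, went the other way through H2-Eb1, which averaged 34549.8 with acLDL and 22132 in controls. Of 10 macrophage markers 7 were lower (median -1.85), among them Cd14 at -2.63 and C1qc at -2.82, while their sum of 8749 to 12487 with acLDL, against 7959 to 9446 in controls, was carried by Csf1r, which averaged 7058 with acLDL and 4311 in controls. With the short-transcript index as a covariate these medians were 0.0012 and -0.030. The part of these marker genes in the differences of the members was not tested. Of 10 markers of plasmacytoid dendritic cells, the main makers of type I interferon, 6 were in the table (Siglech and Ly6d were among those with no row), with sums of 172 to 298 with acLDL and 248 to 298 in controls. Of lymphocyte markers 2 of 10 and of erythroid markers 1 of 8 were in the table. Both lymphocyte markers had a higher mean log2 value with acLDL (median 0.73), with sums of 29.4 to 76.8 against 16.6 to 31.4 in controls. The erythroid marker lay at 54.1 to 190 with acLDL, against 164 to 1429 in controls. Its log2 fold change was -2.52, and -2.99 with the covariate, each at an unadjusted p under 0.05 by limma. The index was fitted as a covariate and libraries were left out, with the values given beside the results. In bulk RNA, fewer cells of a type and less RNA per cell cannot be told apart.

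Promoters of the members show the element that the pathway acts on, and 35 of the 50 members had an entry among the RefSeq promoters (build GRCm38.p6, 250 bases before to 50 bases after the annotated start). The ISRE core, searched as GAAANNGAAA on both strands, was found in 19 of these 35 (54.3%), against 3.94% of 7691 tested genes with a promoter and 3.99% of all 27025 genes of the promoter table. The GAS motif, TTCNNNGAA, which reads the same on both strands, was found in 11 of the 35 (31.4%), against 8.24% of tested genes and 9.55% of all genes of the promoter table. A total of 7 members held both, and in 1 of them the motifs shared bases. All 3 IFIT promoters and all 4 guanylate-binding protein promoters held the ISRE core, as did 2 of 3 OAS promoters and 1 of 4 promoters of the signalling factors. A match is a description of letters and not of a site in use. The 250 bases before the start are shown for Rsad2 and Gbp7, 2 members that were lower with acLDL in every library, and 50-base windows are shown for the other IFIT, OAS, guanylate-binding protein and signalling members that hold the core. Each runs 5′ to 3′ on the strand of its gene, and capitals mark the ISRE core, which reads TTTCNNTTTC where it lies on the opposite strand.
Rsad2 (chr12:26456453-26456702, minus strand): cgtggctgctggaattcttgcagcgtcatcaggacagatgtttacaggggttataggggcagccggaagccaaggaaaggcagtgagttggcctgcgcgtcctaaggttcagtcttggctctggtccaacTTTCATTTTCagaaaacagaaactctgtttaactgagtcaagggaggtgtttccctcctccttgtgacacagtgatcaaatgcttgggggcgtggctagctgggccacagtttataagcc
Gbp7 (chr3:142530086-142530335, plus strand): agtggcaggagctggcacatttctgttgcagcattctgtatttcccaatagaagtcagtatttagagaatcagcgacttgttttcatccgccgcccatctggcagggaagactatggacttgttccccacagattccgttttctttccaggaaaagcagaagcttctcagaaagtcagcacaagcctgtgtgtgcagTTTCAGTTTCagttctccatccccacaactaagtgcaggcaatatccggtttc
Stat2 (chr10:128270256-128270305, plus strand): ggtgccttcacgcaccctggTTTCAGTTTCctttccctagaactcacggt
Ifit1 (chr19:34640774-34640823, plus strand): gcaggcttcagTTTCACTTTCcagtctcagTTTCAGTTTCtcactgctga
Ifit3 (chr19:34583370-34583419, plus strand): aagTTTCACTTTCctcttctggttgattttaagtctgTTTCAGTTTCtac
Ifit3b (chr19:34607766-34607815, plus strand): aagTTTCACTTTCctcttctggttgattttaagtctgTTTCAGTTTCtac
Oas1a (chr5:120907526-120907575, minus strand): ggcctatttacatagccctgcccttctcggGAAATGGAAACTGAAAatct
Oas3 (chr5:120777705-120777754, minus strand): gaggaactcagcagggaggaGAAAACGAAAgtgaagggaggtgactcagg
Gbp2 (chr3:142620584-142620633, plus strand): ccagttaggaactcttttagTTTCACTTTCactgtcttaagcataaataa
Gbp3 (chr3:142559982-142560031, plus strand): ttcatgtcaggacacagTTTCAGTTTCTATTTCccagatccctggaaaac
Gbp5 (chr3:142496749-142496798, plus strand): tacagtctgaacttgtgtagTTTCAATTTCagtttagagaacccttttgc

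The windows differ in how the core is arranged. Ifit1 holds a pair of cores that begin 104 and 85 bases before the start, Ifit3 and Ifit3b also hold a pair each, and in Oas1a and Gbp3 a pair of cores overlaps. The windows of Ifit3 and Ifit3b, neighbours on chromosome 19, were identical at 50 of 50 bases. In Rsad2 the core begins 120 bases before the start and in Gbp7 53 bases before it.

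Cells given acLDL were set against control cells to see what lipid loading does to expression. Most members had a lower mean log2 value with acLDL, and none passed the threshold of limma's moderated test. Log2 fold changes are acLDL minus control on log2(value + 5), with Benjamini-Hochberg adjustment over 10091 tested genes and a threshold of 0.05. Of the 47 tested members, 36 were lower (76.6%) and 11 higher, where 55.7% of all tested genes were lower. The median log2 fold change was -0.70 over the members and -0.13 over all tested genes. At an unadjusted p under 0.05 there were 15 members, all lower (31.9%), against 8.93% of all tested genes in that direction, and no member was higher at that p, against 7.42%. No gene of the whole table had an adjusted p under 0.05 (0% of 10091 genes, 1650 or 16.4% at an unadjusted p under 0.05), and the smallest adjusted p, among members and among all genes, was 0.298. The 3 members that did not pass the filter on low values were Oas2, listed above 0 in 4 of 8 libraries, Mx2 in 4 and Iigp1 in 5. Of the 47 tested members, 33 were above 0 in every library and 14 were listed at 0 in at least 1.

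**Figure D1:**
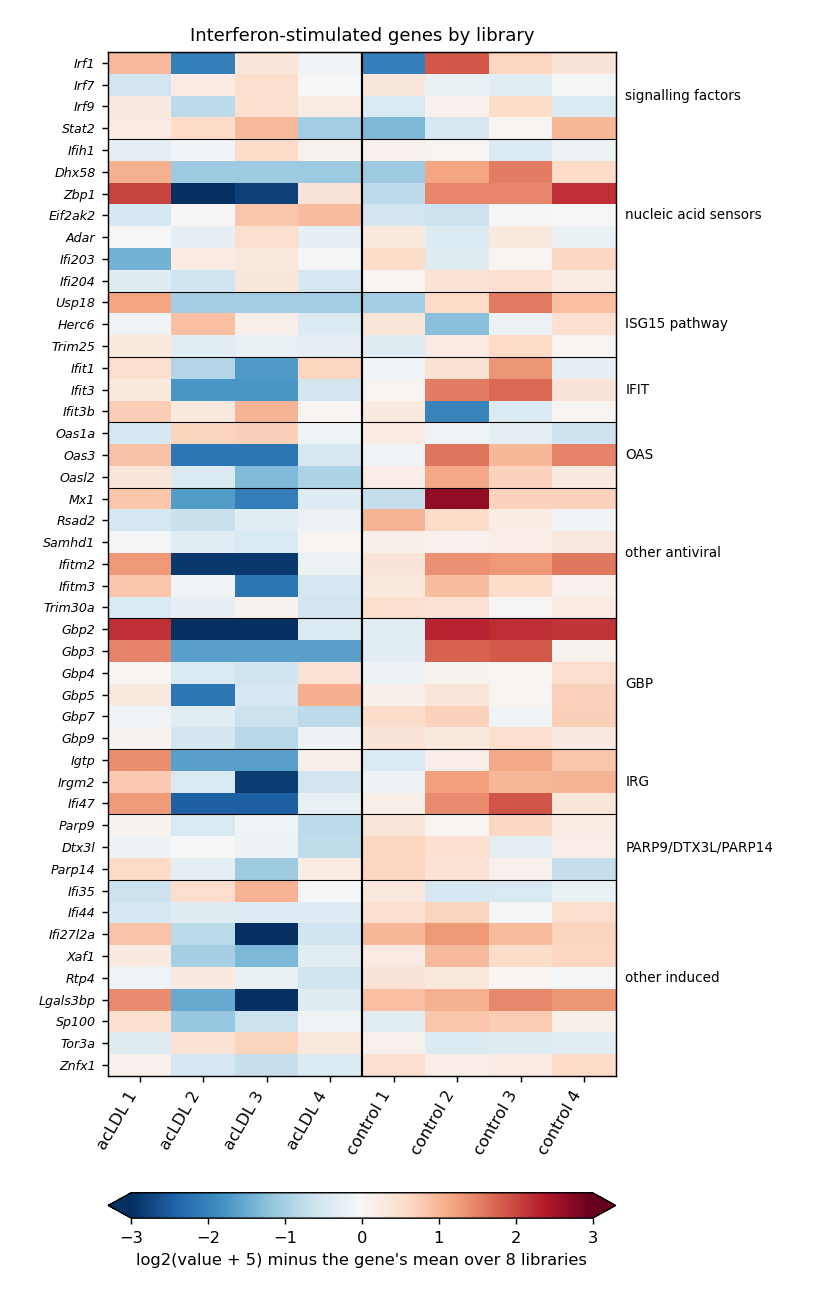
Colour gives log2(value + 5) of each tested member in each library, minus that gene's mean over the 8 libraries, with acLDL libraries left of the line and controls right of it, rows grouped by class and values beyond the scale drawn in its end colours. Many rows are blue in acLDL libraries 2 and 3 and red in acLDL library 1 and control libraries 2 to 4, while Rsad2, Gbp7 and Ifi44 are blue in all 4 acLDL libraries.

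The 4 signalling members, which transmit or amplify the interferon signal, showed no common direction (median log2 fold change 0.10, 3 higher and 1 lower). Irf7, the transcription factor that amplifies type I interferon production, had normalized values of 129, 229.6, 281 and 193 in acLDL libraries 1 to 4, against 247, 168, 153 and 189.5 in control libraries 1 to 4. The ranges overlapped almost entirely, with means of 208 ± 63.7 with acLDL and 189 ± 41.3 in controls (SD, n = 4 each) and a log2 fold change of 0.10 (SE 0.28). Irf9, the DNA-binding subunit of ISGF3, stood at 159, 73.9, 184 and 152 in acLDL libraries 1 to 4, against 93.9, 142, 192 and 97.1 in control libraries 1 to 4. Stat2, its partner, ranged widely in both groups, at 83.3, 108, 141 and 31.3 in acLDL libraries 1 to 4, against 24.2, 48.1, 73.0 and 143 in control libraries 1 to 4. Irf1, a factor induced by interferon gamma, was listed at 0 in acLDL library 2 and control library 1, with 35.6, 0, 21.8 and 14.0 in acLDL libraries 1 to 4, against 0, 70.2, 27.2 and 22.1 in control libraries 1 to 4. Adjusted p-values of the 4 lay between 0.70 and 0.88. In none of them did acLDL libraries 2, 3 and 4 all lie on one side of the controls.

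Members that sense nucleic acid had a median log2 fold change of -0.45, with 4 of 7 lower. Ifi204, a DNA-binding protein of the PYHIN family and the one sensor at an unadjusted p under 0.05, had 285, 242, 469.9 and 254 in acLDL libraries 1 to 4, against 384, 487, 512 and 427 in control libraries 1 to 4. Only acLDL library 3 reached the range of the controls, and the log2 fold change was -0.57 (SE 0.25). Ifi203, of the same family, had 306, 981, 1017 and 792 in acLDL libraries 1 to 4, against 1209.6, 638, 864 and 1273 in control libraries 1 to 4, a log2 fold change of -0.45 (SE 0.41) with wide overlap. Zbp1, which binds Z-form nucleic acid and starts necroptosis, had 313, 0, 6.08 and 95.9 in acLDL libraries 1 to 4, against 40.2, 209, 209 and 350.2 in control libraries 1 to 4. Its log2 fold change was -2.17 (SE 1.28), with groups that overlapped. Dhx58, which encodes the RNA-binding helicase LGP2, was listed at 0 in acLDL libraries 2, 3 and 4 and in control library 1, and otherwise lay between 10.97 and 26.03. The remaining sensors, Ifih1 (the RNA helicase MDA5), Eif2ak2 (the kinase PKR, which halts translation) and Adar (an RNA editing enzyme), had log2 fold changes of 0.17, 0.64 and 0.0056. Ddx58 had no row under that symbol. The table lists Rigi, its current symbol, which was not counted as a member and was looked up after the other values were seen, at 170.0, 219, 239 and 142 in acLDL libraries 1 to 4, against 198, 182, 179 and 178 in control libraries 1 to 4.

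Of the ISG15 pathway, in which the ubiquitin-like protein ISG15 is attached to other proteins, 3 members were tested and 2 of them were lower (median -0.28). Trim25, a ubiquitin ligase for the sensor RIG-I, had 525, 344, 371 and 348 in acLDL libraries 1 to 4, against 335, 509.5, 653 and 453 in control libraries 1 to 4, and its log2 fold change was -0.28 (SE 0.25). Herc6, the ISG15 ligase of mice, had 193, 395, 233 and 154 in acLDL libraries 1 to 4, against 270.3, 84.7, 184 and 298 in control libraries 1 to 4, and a log2 fold change of 0.27 (SE 0.44). Usp18, the protease that removes ISG15 and dampens the type I receptor, was listed at 0 in acLDL libraries 2, 3 and 4 and in control library 1, and at 18.5 in acLDL library 1 and from 10.5 to 25.7 in the other controls. All 3 overlapped between the groups.

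IFIT proteins bind foreign RNA or the translation machinery, and the 3 tested genes shared no direction. Ifit1 (GRCm38 chromosome 19, 34640871 to 34650009, plus strand), which recognizes viral RNA caps, had 186, 66.8, 35.6 and 203 in acLDL libraries 1 to 4, against 120.1, 176, 328 and 104 in control libraries 1 to 4 and a log2 fold change of -0.70 (SE 0.58), within the spread of each group. Ifit3 had 15.8, 0, 0 and 6.44 in acLDL libraries 1 to 4, against 12.5, 43.6, 49.5 and 16.6 in control libraries 1 to 4, a log2 fold change of -1.85 (SE 0.64) at an unadjusted p under 0.05. Ifit3b, its near copy, was higher with acLDL instead, with 28.8, 19.7, 35.5 and 15.8 in acLDL libraries 1 to 4, against 19.5, 0, 9.92 and 15.9 in control libraries 1 to 4 (log2 fold change 1.05, SE 0.57). Their longest coding transcripts scored 81.2% in identity, a measure in which bases left unaligned count as differing. They are 1745 and 2000 nt long with 1697 nt aligned, so part of the shortfall is unaligned sequence. Over their last 300 nt, nearer to where a 3′ kit reads, the score was 44.0%. The last 300 nt of the less alike Ifit1 and Ifit2 (42.5% over the alignment) scored 43.8%. The last 300 nt of 2 transcripts need not be matching stretches, so these tail scores cannot show how alike the 3′ ends are. Whether kallisto split reads between Ifit3 and Ifit3b was not tested. Summed, the pair had 44.6, 19.7, 35.5 and 22.3 in acLDL libraries 1 to 4, against 32.0, 43.6, 59.4 and 32.6 in control libraries 1 to 4, a difference of -0.42 on the log2 scale. The sums of the groups overlapped, with only acLDL libraries 2 and 4 below every control.

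OAS enzymes make a short oligoadenylate messenger that switches on RNase L, and their 3 tested genes also shared no direction. Oas1a (GRCm38 chromosome 5, 120896256 to 120907521, minus strand) had 907, 2085, 2146 and 1200.4 in acLDL libraries 1 to 4, against 1557, 1224, 1084 and 847 in control libraries 1 to 4. Its mean was higher with acLDL, at 1585 ± 625 with acLDL and 1178 ± 297 in controls (SD, n = 4 each), but acLDL library 1 lay among the lowest controls and the log2 fold change was 0.37 (SE 0.32). Its neighbour Oas1g has a transcript that scored 90.6% in the same identity measure, with 1860 nt aligned. Over the last 300 nt the score was 41.7%, with only 183 nt aligned and unaligned bases counted as differing. The last 300 nt of the less alike Oas1a and Oas2 (32.2% over the alignment) scored 44.8%, with 254 nt aligned. These tail scores therefore cannot show how alike the 3′ ends are. Oas1a and Oas1g summed differed by 0.32 on the log2 scale, and whether reads were split between them was not tested. Oas3 had 36.3, 0, 0 and 11.1 in acLDL libraries 1 to 4, against 16.0, 63.9, 39.9 and 58.4 in control libraries 1 to 4, and Oasl2 had 57.6, 30.8, 14.4 and 19.97 in acLDL libraries 1 to 4, against 50.7, 103, 73.3 and 53.2 in control libraries 1 to 4. In both, acLDL libraries 2, 3 and 4 lay below every control and acLDL library 1 among the controls, with log2 fold changes of -1.99 (SE 0.76) for Oas3 and -1.17 (SE 0.43) for Oasl2. Both were at an unadjusted p under 0.05, with an adjusted p of 0.298 by limma.

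All 6 tested genes of the other antiviral effectors had a lower mean log2 value with acLDL, also after median-of-ratios scaling and quantile normalization, and their median log2 fold change was -0.91. Rsad2 (GRCm38 chromosome 12, 26442746 to 26456452, minus strand), which encodes viperin, an enzyme that makes a chain-terminating nucleotide, had 163, 148, 191 and 209 in acLDL libraries 1 to 4, against 492, 352, 278 and 224 in control libraries 1 to 4. Every acLDL library lay below every control, with means of 178 ± 27.3 with acLDL and 337 ± 116 in controls (SD, n = 4 each) and a log2 fold change of -0.85 (SE 0.27, adjusted p = 0.298 by limma). Samhd1, which depletes the deoxynucleotides that viruses need, also did not overlap, with 1417, 1171, 1074 and 1574 in acLDL libraries 1 to 4, against 1648, 1618, 1708 and 1779 in control libraries 1 to 4. Its difference was small, at -0.38 (SE 0.17). Trim30a, a ubiquitin ligase induced by interferon, had 69.2, 80.9, 104 and 62.8 in acLDL libraries 1 to 4, against 136, 131, 98.5 and 115 in control libraries 1 to 4. Here acLDL library 3 alone reached the controls. Ifitm2, whose protein blocks the fusion of viral and cell membranes, was listed at 0 in acLDL libraries 2 and 3, with 86.0, 0, 0 and 28.4 in acLDL libraries 1 to 4, against 42.9, 90.0, 85.4 and 106 in control libraries 1 to 4, and its relative Ifitm3 lay at 153 to 1271 with acLDL, against 769 to 1341 in controls. Mx1, a GTPase that C57BL/6 mice are known to carry as a defective allele, lay at 12.2 to 123 with acLDL, against 38.9 to 448 in controls.

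Guanylate-binding proteins are GTPases, strongly induced by interferon gamma, that coat and break open microbial vacuoles. All 6 members were tested and all had a lower mean log2 value with acLDL (median -0.83), although Gbp4 turned to 0.14 after quantile normalization. Gbp7 (GRCm38 chromosome 3, 142530342 to 142550149, plus strand) had 174, 147, 117 and 107 in acLDL libraries 1 to 4, against 276, 305, 177 and 309 in control libraries 1 to 4. Its groups did not overlap, by the narrow gap between acLDL library 1 and control library 3, and the means were 136 ± 30.5 with acLDL and 267 ± 61.7 in controls (SD, n = 4 each), a log2 fold change of -0.94 (SE 0.26, adjusted p = 0.298 by limma). Gbp9 (GRCm38 chromosome 5, 105077630 to 105139539, minus strand) had 48.4, 28.8, 22.6 and 39.4 in acLDL libraries 1 to 4, against 60.2, 55.3, 64.7 and 54.5 in control libraries 1 to 4, again with no overlap, and a log2 fold change of -0.72 (SE 0.31). The annotated interval of Gbp4 (105115767 to 105139586, minus strand) overlaps that of Gbp9. Their transcripts scored 82.6% in the same identity measure, and 64.0% over the last 300 nt. How reads were divided between the 2 genes was not tested. Gbp4 itself had 32.3, 21.5, 18.6 and 43.9 in acLDL libraries 1 to 4, against 27.2, 33.8, 33.0 and 46.4 in control libraries 1 to 4, with groups that overlapped widely.

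In the remaining members of the family the groups overlapped. Gbp2 had 565, 0, 6.41 and 87.3 in acLDL libraries 1 to 4, against 94.7, 604, 574 and 546 in control libraries 1 to 4. It was near its highest level in acLDL library 1 and listed at 0 in acLDL library 2, so its log2 fold change of -3.16 (SE 1.38) rested on acLDL libraries 2, 3 and 4. Without acLDL libraries 2 and 3 it was -0.70. Gbp3 had the same shape, with 38.6, 0, 0 and 0 in acLDL libraries 1 to 4, against 7.56, 48.5, 50.7 and 11.9 in control libraries 1 to 4. Gbp5, which promotes inflammasome assembly, had 22.9, 0, 11.02 and 43.2 in acLDL libraries 1 to 4, against 20.3, 24.3, 18.4 and 31.6 in control libraries 1 to 4 and a log2 fold change of -0.64 (SE 0.67). Of the 4 members on chromosome 3, the groups were apart in Gbp7 alone.

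The immunity-related GTPases act beside the guanylate-binding proteins at vacuoles, and their 3 tested members were all lower in mean log2 value (median -1.55), none at an unadjusted p under 0.05. Irgm2, a regulator of the family, had 57.3, 21.3, 0 and 19.7 in acLDL libraries 1 to 4, against 27.9, 80.7, 67.1 and 68.0 in control libraries 1 to 4. Ifi47 had 60.8, 0, 0 and 18.5 in acLDL libraries 1 to 4, against 25.8, 68.2, 95.1 and 29.8 in control libraries 1 to 4, and Igtp, another regulator, had 35.4, 0, 0 and 12.2 in acLDL libraries 1 to 4, against 6.45, 12.8, 28.9 and 22.6 in control libraries 1 to 4. Each was listed at 0 in acLDL library 3, and acLDL library 1 stood among the controls for Irgm2 and Ifi47 and above them for Igtp. Dtx3l and Parp9, whose proteins form a ubiquitin ligase and ADP-ribosylation pair, differed by -0.54 (SE 0.27) and -0.63 (SE 0.37). Dtx3l had 263, 295, 262 and 169.9 in acLDL libraries 1 to 4, against 463, 417, 242 and 337 in control libraries 1 to 4, and Parp9 had 23.6, 14.3, 19.4 and 10.6 in acLDL libraries 1 to 4, against 29.5, 22.7, 35.9 and 25.998 in control libraries 1 to 4. In both genes the ranges overlapped, for Parp9 only through acLDL library 1. Parp14, a related ADP-ribosyltransferase, had 127, 67.6, 36.3 and 97.3 in acLDL libraries 1 to 4, against 130.03, 112, 90.8 and 48.4 in control libraries 1 to 4, a log2 fold change of -0.25 (SE 0.44) that turned to 0.075 after quantile normalization.

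Among the remaining 9 induced genes, 7 were lower (median -0.74). Ifi44 (GRCm38 chromosome 3, 151730922 to 151749960, minus strand), a cytoplasmic protein induced by type I interferon, had 42.2, 48.3, 47.4 and 47.3 in acLDL libraries 1 to 4, against 90.0, 104, 62.1 and 93.0 in control libraries 1 to 4. The 4 acLDL libraries lay within 42.2 to 48.3 and every control above them, with means of 46.3 ± 2.75 with acLDL and 87.3 ± 17.9 in controls (SD, n = 4 each) and a log2 fold change of -0.83 (SE 0.26, adjusted p = 0.298 by limma). Znfx1, an RNA helicase that senses viral RNA, also did not overlap, with 71.8, 44.4, 38.6 and 48.1 in acLDL libraries 1 to 4, against 92.7, 75.4, 78.3 and 99.8 in control libraries 1 to 4 and a log2 fold change of -0.74 (SE 0.28). Xaf1, an antagonist of the caspase inhibitor XIAP, had 48.2, 16.8, 12.3 and 29.5 in acLDL libraries 1 to 4, against 47.4, 80.5, 59.2 and 63.6 in control libraries 1 to 4, where acLDL library 1 alone reached the controls. Tor3a, an ATPase of the torsin family, had a higher mean with acLDL, at 422, 730.4, 869.6 and 683 in acLDL libraries 1 to 4, against 596, 402, 425 and 431 in control libraries 1 to 4 (log2 fold change 0.51, SE 0.26), and acLDL library 1 again stood among the controls. The mean of Ifi35 was higher too (0.43), and those of Ifi27l2a (-1.95), Lgals3bp, a secreted glycoprotein (-2.37), Sp100, a component of nuclear bodies (-0.71), and Rtp4 (-0.35) were lower.

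In 6 of the 47 tested members (12.8%) every acLDL library lay below every control, and in none did every acLDL library lie above. Over all tested genes these shares were 2.2% and 3.44%. The 6 were Rsad2, Samhd1, Gbp7, Gbp9, Ifi44 and Znfx1, and they belong to 3 of the 10 classes. Their differences were moderate, from -0.38 to -0.94 on the log2 scale. In Gbp2, Lgals3bp and Ifitm2, which had larger differences, the groups overlapped. None of the 6 passed limma's threshold with all libraries.

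**Figure D2:**
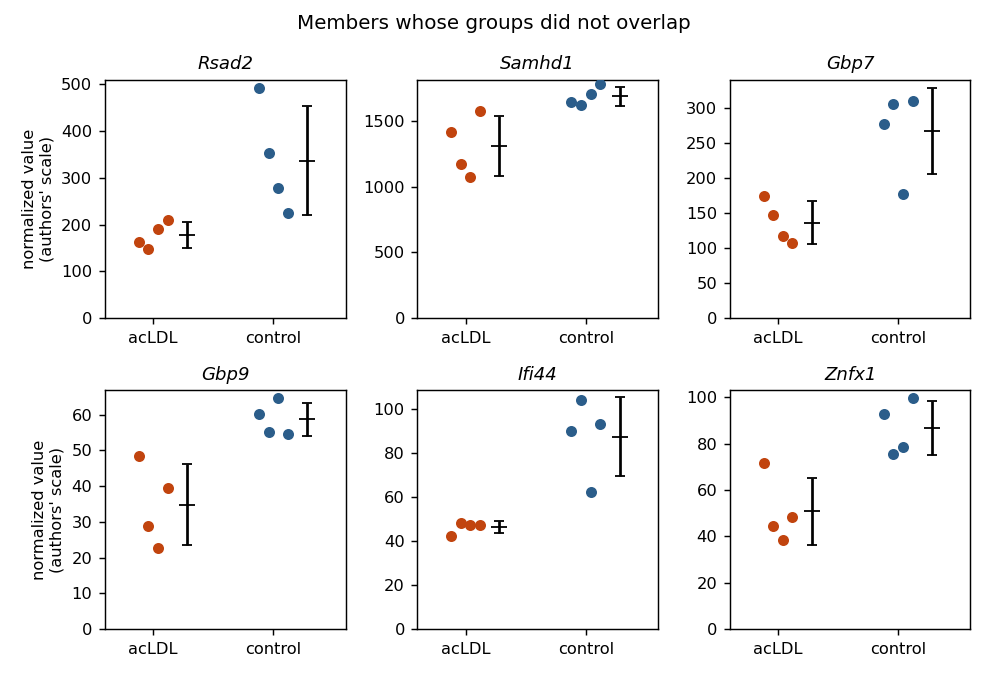
Each panel plots the normalized value, in the authors' scale, of 1 member in the 4 acLDL libraries (left) and the 4 controls (right), with the mean and SD beside the points. In all 6 panels the highest acLDL library lies below the lowest control, with acLDL values of Ifi44 between 42.2 and 48.3 and its controls between 62.1 and 104.

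Set side by side, the signalling factors had a median log2 fold change of 0.10, while it was -0.70 for IFIT, -1.17 for OAS and -0.83 for guanylate-binding protein genes. The mean log2 deviation of the guanylate-binding protein genes was 0.67, -1.63, -1.28 and -0.25 in acLDL libraries 1 to 4, against 0.053, 0.92, 0.77 and 0.74 in control libraries 1 to 4. For the OAS genes it was 0.24, -0.65, -0.93 and -0.52 with acLDL, against 0.12, 0.89, 0.47 and 0.38 in controls. For the IFIT genes it was 0.53, -0.78, -0.81 and 0.053 with acLDL, against 0.090, -0.0059, 0.87 and 0.049 in controls. By this mean each effector family was lowest in acLDL libraries 2 and 3, and acLDL library 1 stood among the controls in all 3. The signalling factors had 0.23, -0.50, 0.59 and -0.24 with acLDL and -0.88, 0.32, 0.23 and 0.24 in controls, where control library 1 was the lowest of all 8. Over all 47 members the values were 0.35, -0.80, -0.81 and -0.26 with acLDL and 0.032, 0.53, 0.54 and 0.41 in controls, with acLDL libraries 2, 3 and 4 below every control. Over all tested genes they were 0.24, -0.32, -0.41 and -0.11 with acLDL and -0.025, 0.20, 0.27 and 0.17 in controls. There too acLDL libraries 2 and 3 were lowest, libraries 2, 3 and 4 lay below every control, and library 1 stood among the controls. All tested genes under 1500 nt had 0.85, -0.99, -1.60 and -0.33 with acLDL, against -0.019, 0.72, 0.82 and 0.55 in controls. Fitted with the short-transcript covariate, class medians were 0.22 for signalling, 0.33 for IFIT, -0.55 for OAS and -0.33 for guanylate-binding protein genes, so that IFIT changed sign. Summed signals went another way for OAS. Its 4 genes in the table summed to 1008, 2116, 2211 and 1231 in acLDL libraries 1 to 4. The control sums were 1624, 1391, 1213 and 965, so OAS was highest in acLDL libraries 2 and 3, through Oas1a. The IFIT and guanylate-binding protein sums were lowest in those 2 libraries. No difference between classes was tested.

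**Figure D3:**
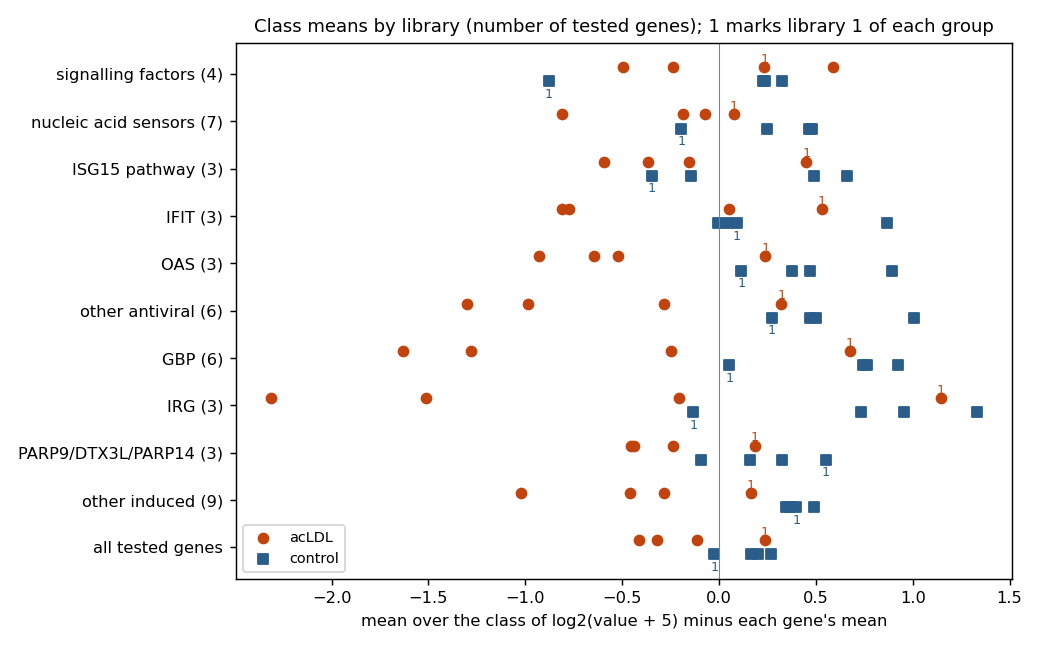
Each row gives, for 1 class of members or for all tested genes, the mean of log2(value + 5) minus each gene's own mean, per library (acLDL circles above, control squares below, the number 1 marking library 1 of each group). In the row of the guanylate-binding proteins acLDL library 1 stands at 0.67, among the controls, and the other acLDL libraries stand to the left of every control. The row of all tested genes shows the same placing over a narrower range.

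Upstream of the members, none of 12 listed interferon genes was analysed here, and 4 receptor genes were tested, all with a lower mean log2 value with acLDL. Ifnar1 had 35.4, 20.5, 25.3 and 8.75 in acLDL libraries 1 to 4, against 36.1, 37.7, 30.8 and 36.7 in control libraries 1 to 4, and Ifnar2, the other chain of the type I receptor, had 67.4, 20.4, 46.7 and 31.6 in acLDL libraries 1 to 4, against 66.8, 81.2, 51.2 and 52.5 in control libraries 1 to 4. Of the interferon gamma receptor, Ifngr1 had 77.8, 0, 41.0 and 10.5 in acLDL libraries 1 to 4, against 28.1, 132, 92.5 and 49.2 in control libraries 1 to 4, and Ifngr2 had 1048, 526, 387 and 891 in acLDL libraries 1 to 4, against 799, 918, 1054 and 1203 in control libraries 1 to 4. These overlapped between the groups, with log2 fold changes from -1.59 for Ifngr1 to -0.57 for Ifngr2. The Janus kinase genes Jak1 and Jak2 differed little, at 0.056 (SE 0.25) and -0.072 (SE 0.21), and Tyk2 had 58.3, 16.0, 6.20 and 35.8 in acLDL libraries 1 to 4, against 26.3, 116, 117 and 102 in control libraries 1 to 4 (log2 fold change -1.58, SE 0.65). Of the brakes, Socs1 had 313, 38.9, 33.2 and 318 in acLDL libraries 1 to 4, against 219, 390.3, 302 and 346 in control libraries 1 to 4 (log2 fold change -1.45, SE 0.74). Of the other interferon regulatory factors Irf8 had a log2 fold change of -0.30 (SE 0.26). Of 5 tested genes each, 3 were lower among the other interferon regulatory factors and 4 among the brakes. In the induction pathway 8 of 15 genes were lower. Its 3 genes with the smallest p were Sting1, the adaptor of DNA sensing, at 1.02, Trex1, a DNA exonuclease, at -3.39, and the transporter gene Slc15a3 at 0.69. Of 44 further interferon-induced genes that were tested and are not members, 36 were lower and 8 higher (median -1.03), with 15 lower and 0 higher at an unadjusted p under 0.05, where 55.7% of all tested genes were lower and 8.93% were lower at that p. With the short-transcript covariate 29 of the 44 were lower (median -0.24), 5 of them at an unadjusted p under 0.05. In that fit 4911 of all 10091 tested genes were lower, and 3.03% were lower at that p. The genes with the smallest p in the first fit were Slfn4 at -1.75, Epsti1 at -1.27 and Ifi213 at -1.25, and in each of the 3 every acLDL library lay below every control. None of the pathway genes passed limma's threshold.

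The difference between acLDL and control varied with transcript length among members, as among all genes. Members with a longest coding transcript under 1500 nt, 4 in number, had a median log2 fold change of -1.45, where all tested genes of that length had -1.14. For the 20 members of 1500 to under 3000 nt the medians were -0.85 over members and -0.26 over all genes of that length. For the 23 members of 3000 nt or more, a range where all genes had a median of -0.00090, members had -0.54, with 17 lower and 6 higher. Of the 6 members without overlap, 5 were in this longest class, and Ifi44, at 2910 nt, was just below it. These lengths describe the annotation, and the transcript in use in these cells was not determined.

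**Figure D4:**
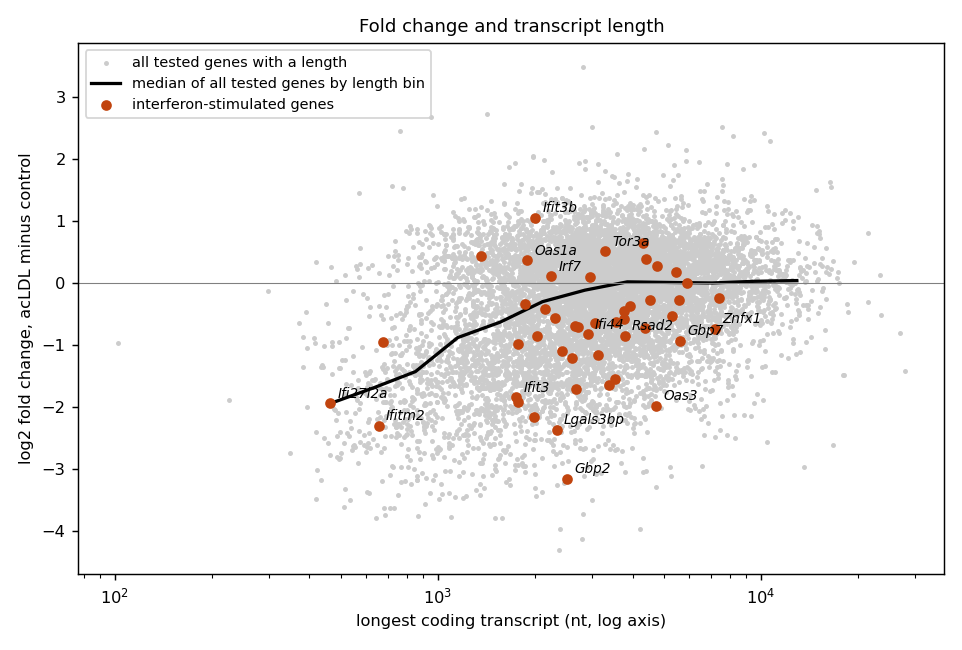
The plot gives the log2 fold change (acLDL minus control, vertical axis) against the longest coding transcript in nt (horizontal log axis) for all tested genes with a length (grey), with their median by length bin (black line) and the 47 members in orange. The median of all genes is low at short lengths and close to 0 from 3000 nt, where 17 of 23 members lie below 0.

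With the short-transcript index as a covariate, 31 of the 47 members were lower and 16 higher, with a median of -0.21 over members and 0.014 over all tested genes. At an unadjusted p under 0.05 there were 6 members, all lower (12.8%), against 3.03% of all tested genes lower and 1.97% higher at that p, and no gene of the table had an adjusted p under 0.05 (0%). The 6 were Rsad2 at -0.96, Ifi44 at -0.91, Gbp7 at -0.83, Trim30a at -0.83, Ifi204 at -0.73 and Ifi203 at -1.18. For Rsad2, Ifi44 and Gbp7 these values were close to those without the covariate. The other members without overlap went to -0.20 for Samhd1, -0.35 for Gbp9 and -0.47 for Znfx1. In members whose groups overlapped, the log2 fold change was -0.36 for Gbp2, -0.29 for Lgals3bp, -0.56 for Oas3 and -0.23 for Mx1, and it turned to 0.31 for Zbp1, 0.33 for Ifit1 and -0.21 for Oas1a. Irf7 turned to -0.38. The index itself lay below every control in acLDL libraries 2, 3 and 4, so the covariate and the treatment cannot be fully told apart.

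**Figure D5:**
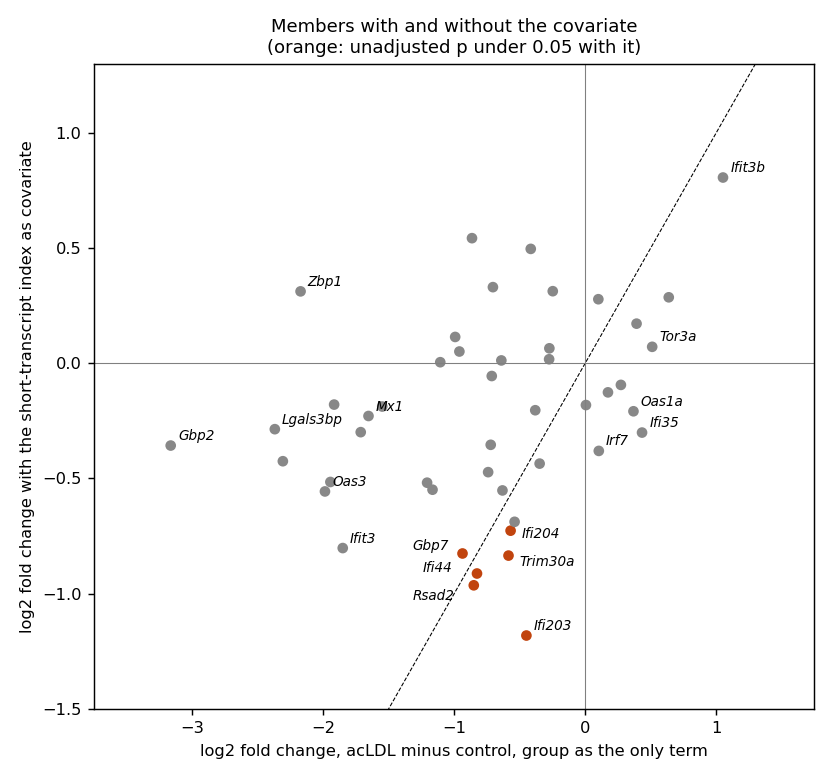
Each point is 1 of the 47 members, with its log2 fold change from the group alone on the horizontal axis and with the short-transcript index as a covariate on the vertical axis (dashed line, equal values), in orange where the unadjusted p was under 0.05 with the covariate. Gbp2 goes to -0.36 with the covariate, and the 6 orange points lie between -0.73 and -1.18.

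The calls depended on acLDL library 1. Without it, 12 members were called lower (25.5%) and 1 higher, against 14.4% and 7.28% of all tested genes (21.7% in either direction), with limma's adjusted p under 0.05. Those lower were Ifit3, Oas3, Oasl2, Ifitm2, Gbp2, Gbp3, Gbp7, Ifi47, Ifi27l2a, Xaf1, Lgals3bp and Znfx1, and Tor3a was higher. Among the tested members, acLDL libraries 2, 3 and 4 lay below every control for 19 members (40.4%) and above for Eif2ak2 and Tor3a, where 18.9% and 14% of all tested genes did so. With limma's array weights, which give less weight to libraries that vary more, 13 of the 47 members were called lower and 1 higher, against 12.9% and 6.49% of all tested genes. The lowest weight, 0.34, went to acLDL library 1, where the other libraries had 0.55 to 2.81. This fit is therefore no separate check on the calls without that library. Over all libraries, acLDL library 1 stood among the controls in 33 of 47 members, where 68.2% of all tested genes did so. Without acLDL libraries 2 and 3, 35 of 47 members were lower, with a median of -0.43, against -0.049 over all tested genes, and no member and no gene had an adjusted p under 0.05 (0%). At an unadjusted p under 0.05 there were 4 members lower, against 1.96% of all tested genes. The 4 members were Ifi204, Trim30a, Gbp7 and Ifi44, with log2 fold changes of -0.73, -0.81, -0.91 and -0.87. Rsad2, at -0.79, was not among them. The log2 fold change was then -0.70 for Gbp2 and 0.24 for Ifit1.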

How the data were processed

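Poly(A) RNA was sequenced in 8 libraries (4 acLDL, 4 control), prepared per the labels' protocols with a Lexogen QuantSeq kit for the 3′ end of messages, although the design text of the series speaks of 5′ ends. The submitters' processing notes name mm10, bcl2fastq 2.20 and kallisto. The authors deposited 1 normalized signal per gene and library. Its values are not whole, none lies between 0 and 5.00, and the sources used here name neither the normalization tool nor the depth, so no count model and no counting interval was used. A value listed at 0 may stand for a low estimate.

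Genes that reached 10 in 4 or more libraries entered limma 3.58.1 (R 4.3.3) as log2(value + 5). The model held the group alone, with trend and robust empirical Bayes, and with Benjamini-Hochberg adjustment over all tested genes. The pseudocount understates differences of low genes. Members and lists were chosen with earlier results of these data known, so no list-level p is given. Members of 4 classes (signalling, IFIT, OAS and guanylate-binding) were all named, and of the other classes the 3 with the smallest p and the one with the highest mean, beside fixed genes of the receptors, kinases and brakes and, of the other pathway lists, the 3 with the smallest p; other genes were named after their values were seen. One gene under this rule is not reported here. Alternatives were size factors, quantile normalization, pseudocounts of 1 and 20, other filters, a replicate block, array weights, the short-transcript covariate and leaving libraries out. Coordinates and lengths came from GENCODE mouse release M21 (GRCm38, which is mm10), in which 89.1% of tested genes had a coding transcript under their symbol. Promoters came from RefSeq (GRCm38.p6), and motifs were searched with Python 3.11.15.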

Additional observations from a re-analysis of the deposited data

Results flagged for a closer look

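Of 106 groups of 4 libraries (53 named genes in 2 groups), 9 held 1 library far from the other 3. Independent values of a normal distribution would give about 1 in 20 groups. These genes share the same libraries and many were chosen for a small p, so 1 in 20 is not a chance rate here. In acLDL library 1 the values were the highest of their group by a wide gap for Dhx58 (17.3), Usp18 (18.5), Trim25 (525), Gbp2 (565), Gbp3 (38.6) and Trex1 (199). The same library was the lowest of its group for Ifi44, at 42.2, within a narrow range. In control library 1 Gbp2 was the lowest of the controls, at 94.7, and Tor3a the highest, at 596. Of the 9, 7 were in acLDL library 1, which had the highest short-transcript index of all libraries, and 2 in control library 1, which had the lowest of the controls.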

How the results depend on the processing

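The tables give 1 normalized signal without depth, so the precision of single values is unknown. The count of genes called, 0 in all libraries, was 655 higher and 1302 lower with array weights and 1 lower with quantile normalization, and leaving out libraries one by one it ran from 0 to 735 higher and from 0 to 1455 lower, the upper ends without acLDL library 1. For members it moved to 1 higher and 13 lower with array weights, and ran from 0 to 1 higher and 0 to 12 lower when each library was left out, again with the upper ends without acLDL library 1. The median of all members stayed between -0.81 and -0.60 when each library was left out and was -0.21 with the short-transcript covariate. With this covariate class medians moved to 0.33 for IFIT, -0.55 for OAS, -0.33 for other antiviral, -0.33 for guanylate-binding protein and -0.18 for immunity-related GTPase genes, and without acLDL libraries 2 and 3 to 0.24 for IFIT and -0.43 for immunity-related GTPase genes. With a mean of at least 50 they moved to -0.40 for OAS and -2.05 for guanylate-binding proteins, with fewer genes left, and with quantile normalization to -0.23 for the PARP9, DTX3L and PARP14 genes. The sensor median ran from -0.63 to -0.054 when each library was left out, -0.054 being without acLDL library 1. Quantile normalization shifted the median of all genes from -0.13 to 0.13, and the median of members relative to it was -0.57, against -0.58 as deposited.

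Genes named by the rule and other members changed direction under some settings, none of them called under those settings. With the short-transcript covariate these were Irf1 (0.50), Irf7 (-0.38), Zbp1 (0.31), Dhx58 (0.0044), Usp18 (0.11), Trim25 (0.017), Herc6 (-0.094), Ifit1 (0.33), Oas1a (-0.21), Gbp4 (0.065), Gbp5 (0.012), Igtp (0.54), Parp14 (0.31), Ifngr2 (0.036), Jak1 (-0.28) and Jak2 (0.24), and of the other members Ifih1 (-0.13), Adar (-0.18), Ifitm3 (0.051) and Ifi35 (-0.30). Without acLDL libraries 2 and 3 they were Irf1 (0.22), Irf7 (-0.23), Stat2 (-0.20), Zbp1 (0.12), Herc6 (-0.13), Ifit1 (0.24), Oas1a (-0.14), Gbp4 (0.11), Gbp5 (0.38), Igtp (0.33), Parp14 (0.30), Jak1 (-0.19), Jak2 (0.15) and Socs1 (0.037), and of the other members Adar (-0.12) and Ifi35 (-0.13). With array weights they were Irf9 (-0.10), Stat2 (-0.35) and Adar (-0.16), and with quantile normalization Gbp4 (0.14) and Parp14 (0.075). When each library was left out, values of genes named by the rule ran from -1.17 to 0.20 for Irf1, -0.055 to 0.31 for Irf7, -0.043 to 0.38 for Irf9, -0.10 to 0.49 for Herc6, -0.52 to 0.070 for Parp14, -0.10 to 0.17 for Jak1 and -0.20 to 0.0030 for Jak2. The cause of these changes was not tested.

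Same-numbered libraries did not deviate alike. Their deviations correlated at -0.55, -0.21, -0.28 and 0.03 for numbers 1 to 4. These correlations cannot show whether libraries shared an animal or culture, because 62.6% of the variation lay along 1 axis. The labels do not state it. With the replicate block no gene and no member was called (0 with and without it), and the median of members was -0.70.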

Other observations

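Further genes of the induction pathway and interferon-induced genes outside the member list were read with the same fit, and limma called none of them. Sting1, the adaptor of cytosolic DNA sensing, had 694, 1682, 1659.8 and 1187 in acLDL libraries 1 to 4, against 720.1, 493, 540.5 and 688 in control libraries 1 to 4, with means of 1306 ± 467 with acLDL and 610.3 ± 111 in controls (SD, n = 4 each) and a log2 fold change of 1.02 (SE 0.30) that was 0.47 with the short-transcript covariate. Trex1, which degrades cytosolic DNA, had 199, 0, 0 and 26.8 in acLDL libraries 1 to 4, against 97.6, 389, 255 and 180.2 in control libraries 1 to 4. Its log2 fold change was -3.39, and -1.004 with the covariate. In both genes acLDL library 1 stood at the level of the controls. Slc15a3, a lysosomal transporter gene, had 662, 1205, 1191 and 744 in acLDL libraries 1 to 4, against 689, 546, 496 and 560.3 in control libraries 1 to 4 and a log2 fold change of 0.69 (SE 0.25), which was 0.27 with the covariate.

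Slfn4, a schlafen family gene of myeloid cells, had 10.9, 13.7, 8.11 and 23.4 in acLDL libraries 1 to 4, against 24.8, 75.7, 63.0 and 81.0 in control libraries 1 to 4. Epsti1 had 299.9, 106, 169.6 and 119 in acLDL libraries 1 to 4, against 311, 448, 359.5 and 479.8 in control libraries 1 to 4. Ifi213, of the PYHIN family like Ifi203 and Ifi204, had 26.6, 38.6, 17.8 and 41.0 in acLDL libraries 1 to 4, against 99.2, 114, 57.7 and 54.1 in control libraries 1 to 4. Every acLDL library, acLDL library 1 included, lay below every control in these 3 genes, which were taken for their small p and support no statement on a wider list. Fitted with that covariate, the log2 fold changes were -1.46 for Slfn4, -0.89 for Epsti1 and -1.17 for Ifi213.

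Il10rb, a receptor chain shared by interleukin 10 and interferon lambda, was picked after its values were seen. It was listed at 0, 24.2, 63.3 and 33.9 in acLDL libraries 1 to 4 and at 0 in all 4 controls, and it did not pass the filter on low values.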
